A study of Mus musculus with 4 samples.

Results

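The genes described here are 33 interstitial collagens and stromal matrix genes, found by symbol among the 27998 genes of the deposited count table. They were chosen for their known role in connective tissue matrix, and all 33 were present. They comprise 5 chains of fibrillar collagens (Col1a1, Col1a2, Col3a1, Col5a1, Col5a2), 6 chains of other collagens (Col6a1, Col6a2, Col6a3, Col14a1, Col15a1, Col8a1), 5 small leucine-rich proteoglycans (Dcn, Lum, Bgn, Fmod, Ogn), 7 adhesive or matricellular glycoproteins (Sparc, Fn1, Postn, Tnc, Tnxb, Thbs1, Thbs2), 7 elastic fibre genes (Fbn1, Fbln1, Fbln2, Eln, Mfap4, Mfap5, Efemp1) and 3 enzymes or enzyme helpers of collagen maturation (Pcolce, Lox, Loxl1). The question was which mammary cells hold these transcripts, how far low levels in epithelium exceed RNA carried over from fibroblasts, and whether the levels differ between control and Zeb1 MSKO libraries.

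Interstitial matrix is laid down as procollagen chains that are trimmed outside the cell, assembled into fibrils and crosslinked by lysyl oxidases, while decorin, lumican and related proteoglycans bind the fibrils and set their spacing. In the mammary gland this matrix is known mainly as a product of the fibroblasts around ducts and lobules. The epithelium itself consists of an inner luminal layer and an outer, contractile basal layer that sits on the basement membrane and faces the stroma.

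Mammary gland cells of C57BL/B6 mice were taken by flow sorting into 10x Chromium 3′ v2 libraries, in which unique molecular identifiers (UMIs) tag each captured transcript molecule. There were 4 libraries: control at 8 weeks, Zeb1 MSKO at 8 weeks, control at 9 weeks and Zeb1 MSKO at 9 weeks of age, and values below follow this order. The labels do not expand MSKO, do not name a Cre driver or the deleted exons, and do not say how many animals went into a library, so each genotype has 2 libraries and each age 1 library of each genotype. Age therefore cannot be told apart from preparation, and p-values measure only how far these libraries spread, which may be technical.

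Of 36884 barcodes, 36470 passed the filters on detected genes and mitochondrial share, and cells were assigned to classes by UMIs of marker genes, none of which is among the 33. The fibroblast class held 373, 516, 23 and 30 cells, the endothelial class 348, 372, 8 and 7, the basal class 1683, 4300, 1993 and 2254, the luminal progenitor class 3910, 1653, 2637 and 3223, and the hormone-sensing luminal class 2530, 1104, 2272 and 3140. Cells that met the gates of more than 1 class (454 to 790 a library) were left out. Summed over 7 fibroblast markers such as Pdgfra, the fibroblast class held 4294 to 6743 CPM (UMIs of a gene per 1000000 UMIs of the class) and the basal class 10.4 to 32.1. The 2 stromal classes at 9 weeks rest on few cells, and 3 UMIs there correspond to 16.9 and 12.3 CPM in fibroblasts and to 72.6 and 52.6 CPM in endothelial cells. Any pair of libraries shared 95 to 151 barcode sequences, at most 1.54% of a library. Zeb1 itself stood at 59, 75.5, 90.4 and 57.2 CPM in fibroblasts and at 0.502 CPM or less in basal cells, where it rested on 4, 14, 0 and 3 UMIs. Zeb1 was thus not lower in the fibroblasts of the MSKO library at 8 weeks, and since the deleted stretch is not known from the labels, 3′ tags do not check the genotype labels.

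Upstream sequence is shown for 4 members that mark the patterns described below: Col3a1 for fibroblasts, Fmod for basal cells, and Col6a3 and Col8a1 for hormone-sensing luminal cells. Each is the 250 bases before the RefSeq start on the coding strand, from the RefSeq promoter table of build GRCm38.p6 (the mm10 assembly), and none of the 4 stretches overlaps a gene of the GENCODE annotation. Capitals mark matches on either strand to CACCTG (an E-box of the kind ZEB1 is known to bind), the CCAAT box, the TATA box TATAAA, the GC box GGGCGG and the AP-1 site TGACTCA, and matches to different motifs may overlap.
Col3a1, chr1:45311288-45311537, plus strand: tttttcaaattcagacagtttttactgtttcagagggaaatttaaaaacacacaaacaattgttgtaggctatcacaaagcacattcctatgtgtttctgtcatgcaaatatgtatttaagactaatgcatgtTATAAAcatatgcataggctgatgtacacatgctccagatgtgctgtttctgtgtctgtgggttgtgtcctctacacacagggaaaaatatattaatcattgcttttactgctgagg
Fmod, chr1:134037004-134037253, plus strand: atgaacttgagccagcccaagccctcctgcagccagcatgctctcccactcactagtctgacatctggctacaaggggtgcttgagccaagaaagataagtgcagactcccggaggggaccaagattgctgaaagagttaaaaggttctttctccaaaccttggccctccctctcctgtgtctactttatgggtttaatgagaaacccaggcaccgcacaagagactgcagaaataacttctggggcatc
Col6a3, chr1:90843972-90844221, minus strand: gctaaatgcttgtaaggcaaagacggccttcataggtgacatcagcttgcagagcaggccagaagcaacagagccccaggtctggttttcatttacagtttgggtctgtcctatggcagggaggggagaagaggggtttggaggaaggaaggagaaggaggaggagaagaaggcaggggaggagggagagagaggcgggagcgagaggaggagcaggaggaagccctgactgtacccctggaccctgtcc
Col8a1, chr16:57754738-57754987, minus strand: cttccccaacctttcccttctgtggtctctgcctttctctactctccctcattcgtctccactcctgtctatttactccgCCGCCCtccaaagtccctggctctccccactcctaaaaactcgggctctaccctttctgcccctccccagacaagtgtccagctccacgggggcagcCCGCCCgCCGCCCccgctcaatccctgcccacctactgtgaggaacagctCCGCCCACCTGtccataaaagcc
The Col3a1 stretch held 1 TATAAA, and the Col8a1 stretch held 1 CACCTG and 4 GC boxes, 1 of which overlaps the CACCTG. The Fmod and Col6a3 stretches matched none of these letters. The Col3a1 stretch was the poorest of the 4 in G and C (35.2%) and the Col8a1 stretch the richest (60.8%), beside a median of 52.4% over all stretches of this length in the table. Of the 21 members with an entry in the table, 2 held CACCTG, 2 CCAAT, 5 TATAAA, 11 GGGCGG and 2 TGACTCA. Among all 32851 stretches the shares were 17.2%, 33.8%, 12.4%, 32.7% and 4.46% in that order. A member counted where any of its stretches held the motif, while these shares are per stretch, so the measures are not alike.

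Fibroblasts held by far the most matrix RNA. The 33 genes together made up 5.02%, 4.99%, 5.54% and 5.04% of all fibroblast UMIs, against 0.416%, 0.452%, 0.471% and 0.415% in basal cells. In endothelial cells the summed share was 0.276%, 0.247%, 0.605% and 0.379%. Luminal progenitors held 0.0179%, 0.0431%, 0.0107% and 0.017%, and hormone-sensing luminal cells 0.0302%, 0.0459%, 0.0342% and 0.0153%. The ranges of fibroblasts, basal cells and the luminal classes did not overlap. By mean CPM, 29 of the 33 were highest in fibroblasts (27 of them in every library), Fmod and Thbs1 in basal cells, Col8a1 in hormone-sensing luminal cells and Tnc in endothelial cells.

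**Figure D1:**
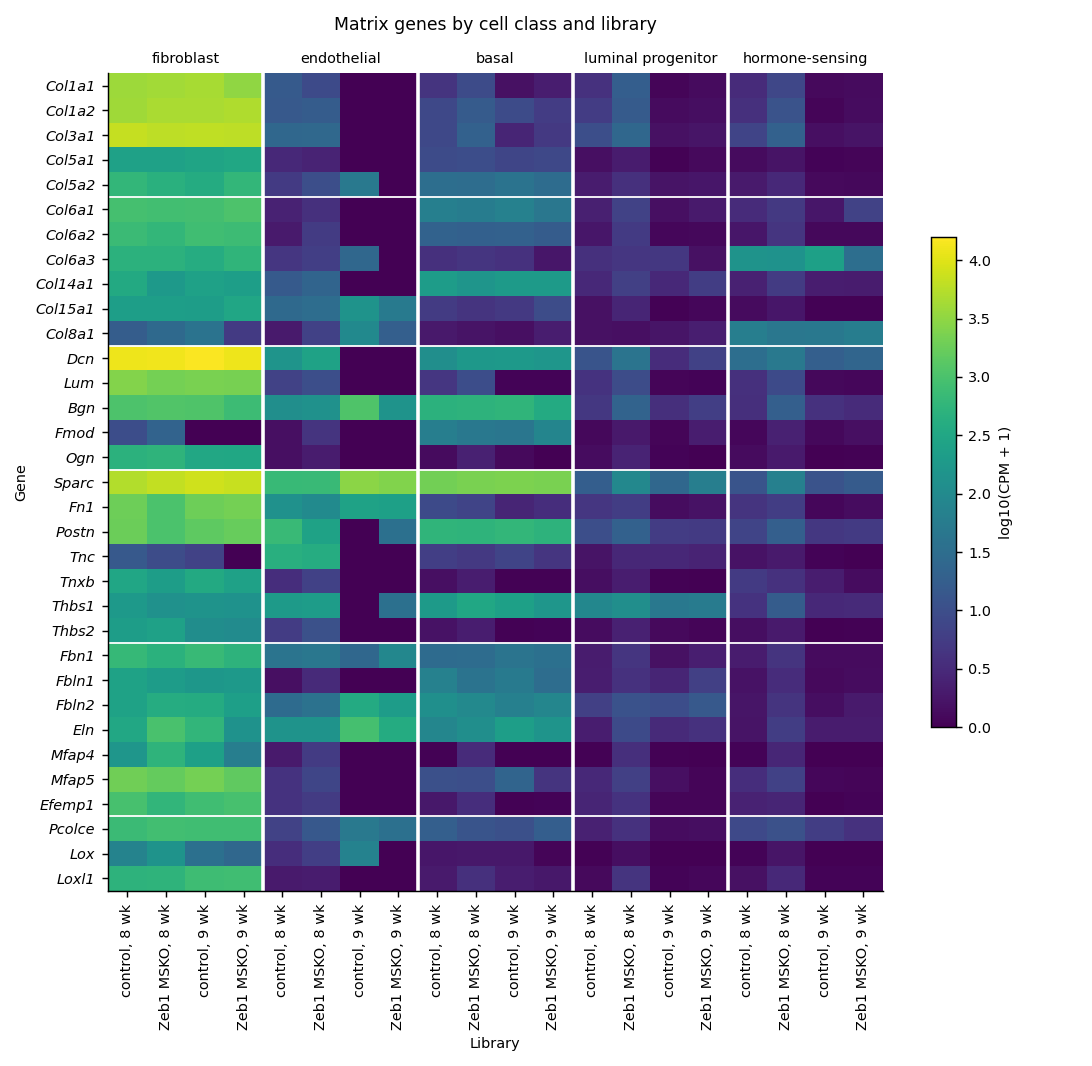
Levels of the 33 matrix genes (rows, ordered by role) in 5 cell classes and 4 libraries (columns) as log10(CPM + 1), brighter meaning higher. Fibroblast columns are bright for nearly all rows, basal columns for Sparc, Postn, Bgn, Col14a1 and Thbs1, and hormone-sensing columns for Col6a3 and Col8a1.

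In fibroblasts the proteoglycan decorin led the list: Dcn stood at 12386, 12684, 14706 and 12564 CPM, which was 24.7% to 26.5% of the summed matrix RNA. Lum, a relative of decorin that also binds collagen fibrils, stood at 2659.5, 2110.0, 2231 and 2157 CPM. Bgn (biglycan) stood at 1055, 1167, 1113 and 752 CPM. Of these proteoglycans Bgn varied most, with its lowest level in the Zeb1 MSKO library at 9 weeks.

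Among the fibrillar collagens, Col3a1 (type III, abundant in loose tissue) stood at 6738, 6117, 6212 and 5957 CPM in fibroblasts. Col1a2 stood at 3978, 4704, 4727 and 5058 CPM, and Col1a1, the other chain of type I collagen, at 3771, 4114, 4433 and 3142 CPM. The ranges of the 2 type I chains overlapped. Of the type V chains, which help to start fibrils, Col5a2 stood at 604, 458, 378 and 597 CPM and Col5a1 at 252, 250.2, 288 and 315 CPM.

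Sparc (osteonectin, a collagen-binding glycoprotein) came second in fibroblasts by mean CPM, at 5201, 6426, 7782 and 7150.3 CPM, although Col3a1 exceeded it in the control library at 8 weeks. Fn1, fibronectin, stood at 1901, 1018, 1875 and 2076 CPM, with the Zeb1 MSKO library at 8 weeks the lowest. Postn (periostin) stood at 1771, 1037, 1463 and 1683 CPM, lowest in the same library. Mfap5, a microfibril protein, stood at 1972, 1598, 2101 and 1475 CPM, and here both MSKO libraries lay below both controls. UMIs were counted at 3′ ends and not divided by length, so levels of different genes are set side by side as captured molecules only.

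The other members were lower in fibroblasts but still far above the epithelium for most. Type VI chains Col6a1 (850.0 to 1079 CPM), Col6a2 (605 to 813) and Col6a3 (401 to 564), which form beaded microfibrils, varied little between libraries. Ogn stood at 315 to 528 CPM, Efemp1 (fibulin 3) at 575 to 945, Col15a1 at 215 to 302, Tnxb (tenascin X) at 217 to 356 and Thbs2 at 106 to 254. Pcolce, which speeds the trimming of procollagen, stood at 737 to 841 CPM. Of the lysyl oxidase genes, Loxl1 stood at 513 to 805 CPM and Lox at 73.2, 142, 33.9 and 24.5 CPM, lower in both libraries at 9 weeks. Basal cells held 2.8 CPM or less of Loxl1 and 0.897 or less of Lox.

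In the edgeR quasi-likelihood test with library as a block, fibroblasts were compared with the mean of the log levels of the 3 epithelial classes. All 33 members were higher in fibroblasts (adjusted p under 0.05), where 24.8% of all 13891 genes tested were higher. The median log2 fold change of the members was 7.98, beside -0.16 over all genes, a median that another scaling (RLE) put at -0.03. Col1a1 differed by 11.30 (SE 0.52, adjusted p = 2.02e-13) on the log2 scale and Lum by 11.19 (SE 0.54, adjusted p = 4.18e-13). The smallest differences were those of Thbs1 (1.67, SE 0.34, adjusted p = 0.00032), Fmod (2.09, SE 0.44, adjusted p = 0.000522) and Tnc (2.49, SE 0.70, adjusted p = 0.00558). By CPM, Thbs1 and Fmod were higher in basal cells than in fibroblasts in every library, and Col8a1 was higher in hormone-sensing cells. A mean of log levels over the epithelial classes does not show this. Since the list was picked for stromal roles and with results of these data known, its direction here is a description of the list.

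Basal cells were compared with the mean of the log levels of the luminal classes, not with each of them. In the edgeR fit 23 members were higher in basal cells and 2 were lower, where 31.5% of all genes tested were higher and 32.1% lower. Fmod, Bgn, Postn, Col14a1, Sparc and Eln had the largest differences, of 6.85 (SE 0.32), 6.49 (SE 0.48), 6.28 (SE 0.47), 6.28 (SE 0.30), 6.26 (SE 0.41) and 6.09 (SE 0.43) on the log2 scale. Col5a2 (5.17), Fbln1 (5.09), Fbn1 (4.87) and Fbln2 (4.81) followed. The 2 lower ones were Col8a1 (-3.01, SE 0.38, adjusted p = 6.76e-07) and Col6a3 (-2.85, SE 0.35, adjusted p = 5.82e-07). Both were at like levels in basal cells and luminal progenitors (mean CPM 0.811 and 0.745 for Col8a1, 2.53 and 2.69 for Col6a3) and higher in hormone-sensing cells (53.6 and 139). Col1a1 (0.36, SE 0.55, adjusted p = 0.586), Col3a1 (0.69, SE 0.51, adjusted p = 0.247) and Lum (0.19, SE 0.58, adjusted p = 0.796) did not pass the test, while Col1a2 was higher in basal cells (1.97, SE 0.57, adjusted p = 0.00497).

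Because droplets also capture free RNA from lysed cells, each epithelial level was set against its level in the fibroblasts of the same library. For 18 reference genes of fibroblasts outside the list (such as Dpt, Ccl11 and Igf1), the median epithelial level was 0.305%, 0.969%, 0.814% and 0.212% of the fibroblast level in basal cells. It was 0.158%, 0.419%, 0.0263% and 0.0375% in luminal progenitors and 0.148%, 0.424%, 0.0263% and 0.0206% in hormone-sensing cells. The Zeb1 MSKO library at 8 weeks had the highest median in every epithelial class. A member counted as above this reference where its own percentage exceeded the median at least 3-fold in all 4 libraries, with at least 10 UMIs in each. A library with no fibroblast UMI of the gene counted as passed, which applied to Fmod at 9 weeks and to Tnc in the Zeb1 MSKO library at 9 weeks.

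By this rule 13 members lay above the reference in basal cells: Col5a2 among the fibrillar chains, Col6a1 and Col14a1 among the other collagens, Bgn and Fmod among the proteoglycans, Sparc, Postn, Tnc and Thbs1 among the glycoproteins, and Fbn1, Fbln1, Fbln2 and Eln among the elastic fibre genes. None of the 3 maturation genes did. In luminal progenitors 5 members lay above it (Col14a1, Fbln2, Postn, Tnc, Thbs1) and in hormone-sensing cells 4 (Col6a3, Col8a1, Tnxb, Thbs1). For Tnc the reference says little, since fibroblasts held 38, 31, 1 and 0 UMIs of it and endothelial cells, its highest class, were not a source in the reference. Altogether 16 members were above it in at least 1 class and 17 in none. With the highest in place of the median reference ratio the counts were 3, 0 and 0. Some reference genes are themselves well represented in epithelium, such as Mmp2 at 137, 211, 239 and 91.9 CPM in basal cells. That alternative takes its threshold from them. In the control library at 9 weeks the reference genes summed to 314 CPM in basal cells, 12.7 in luminal progenitors and 12.4 in hormone-sensing cells. How far basal expression of these genes raises the basal median was not tested. Members not above it in basal cells are therefore not shown to be carried over. Col5a1 and Col6a2 missed the rule there, each at 2.85-fold in its lowest library.

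**Figure D2:**
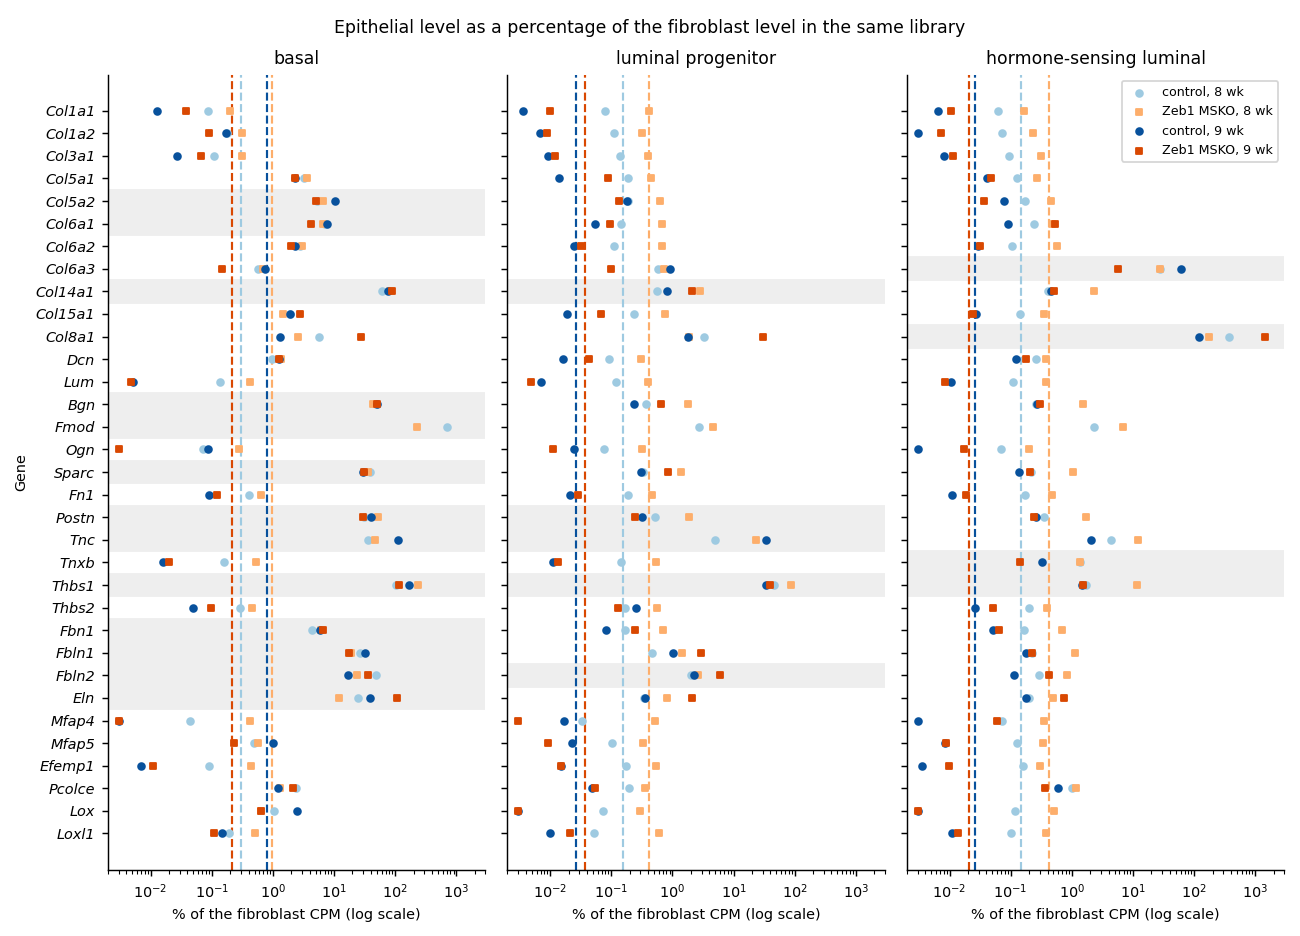
Each gene's CPM in 3 epithelial classes as a percentage of its CPM in fibroblasts of the same library (log axis, 1 point a library, values under 0.003% drawn at 0.003%, no point where the fibroblast level was 0). Dashed lines give the median of the 18 reference genes in each library, and grey rows the genes above it by the rule, such as Sparc in basal cells at 29.7% to 38.6%.

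Col1a1 lay below the reference median in epithelium. It stood at 3.24, 8.11, 0.566 and 1.19 CPM in basal cells, 2.93, 17.1, 0.161 and 0.31 in luminal progenitors and 2.31, 6.79, 0.292 and 0.33 in hormone-sensing cells. For Col1a1 all 3 classes were highest in the Zeb1 MSKO library at 8 weeks and lowest in the control library at 9 weeks. Col1a2, the other type I chain, was not above the reference in any class but had another order: it stood at 7.04, 14.9, 8.15 and 4.5 CPM in basal cells (144 and 87 UMIs at 9 weeks) and at 4.49, 14.9, 0.322 and 0.448 CPM in luminal progenitors. The Col1a2 levels of these classes were equal in the Zeb1 MSKO library at 8 weeks and higher in basal cells in the others. As a percentage of the fibroblast level, Col1a1 in basal cells was 0.0859%, 0.197%, 0.0128% and 0.0379%, under the reference median in every library. After thinning each cell to 2000 UMIs, 0.535%, 1.67%, 0.1% and 0.133% of basal cells held a Col1a1 UMI (2.5%, 4.63%, 0.502% and 1.02% unthinned), beside 95.7% to 100% of fibroblasts. No cell was shallower than 2000 UMIs, so none was left out by thinning. Median depths were 6813 to 7893 UMIs in fibroblasts, 5681 to 7971 in basal cells, 7545 to 8336 in luminal progenitors and 14042 to 17120 in hormone-sensing cells.

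Sparc (ENSMUSG00000018593, chr11:55394500-55423183, minus strand) stood at 2007, 2286, 2309 and 2224 CPM in basal cells and made up 48.2% to 53.6% of their summed matrix RNA. Thinned, 96.7%, 96.9%, 98.2% and 97.9% of basal cells held a Sparc UMI (99.8%, 99.1%, 99.9% and 100% unthinned). In luminal progenitors 2.12%, 11.2%, 2.43% and 4.53% did (8.36%, 36.4%, 9.52% and 11.3% unthinned). The basal shares were close to those of fibroblasts and did not overlap with the luminal ones.

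Postn, a matricellular protein known from wound and tumour stroma, stood at 556, 539, 595 and 509.7 CPM in basal cells, 30.3% to 52% of the fibroblast level. Bgn stood at 507, 509, 561 and 374 CPM, or 43.6% to 50.5% of the fibroblast level. Col14a1, a fibril-associated collagen, stood at 212, 153, 191 and 196 CPM in basal cells beside 355, 185, 254 and 221 CPM in fibroblasts. The Col14a1 ranges of the 2 classes thus overlapped, with the basal value at 59.8% to 88.8% of the fibroblast value. Thinned, 33.5%, 25%, 29.2% and 31.7% of basal cells held a Col14a1 UMI (75.2%, 55.8%, 70.5% and 73.8% unthinned), against 0.435%, 0.996%, 0.088% and 0.223% of hormone-sensing cells (1.66%, 5.98%, 1.72% and 1.88% unthinned).

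Fmod (fibromodulin, ENSMUSG00000041559, chr1:134037254-134048277, plus strand), a proteoglycan that binds collagen I fibrils, was higher in basal cells than in fibroblasts in every library. It stood at 60.7, 47, 44.2 and 82 CPM in basal cells and at 8.74, 20.5, 0 and 0 CPM in fibroblasts, where 3 UMIs at 9 weeks correspond to 16.9 and 12.3 CPM. Thinned, 10.6%, 8.23%, 8.68% and 14.2% of basal cells held a Fmod UMI (32.5%, 21.9%, 27.5% and 40.8% unthinned), against 0.0395%, 0.181%, 0.044% and 0.255% of hormone-sensing cells (0.277%, 2.08%, 0.352% and 0.796% unthinned). Thbs1, thrombospondin 1, was at 195, 321, 241 and 159 CPM in basal cells and at 188, 134, 141 and 139 CPM in fibroblasts. The Thbs1 basal level exceeded the fibroblast level in each library, least in the control library at 8 weeks.

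Of the elastic fibre genes in basal cells, Eln (elastin) stood at 83, 117, 226 and 149 CPM, higher in both libraries at 9 weeks than at 8 weeks. Fbln2 (fibulin 2) stood at 124, 93.9, 65.4 and 84.1 CPM, Fbln1 at 69.1, 39.4, 52.7 and 31.3 CPM and Fbn1 (fibrillin 1, the microfibril backbone) at 28.4, 29.7, 40.2 and 34.3 CPM. Their percentages of the fibroblast level ranged from 4.32% for Fbn1 to 107% for Eln, the latter where fibroblast Eln was lowest. Mfap4, by contrast, was at 0.0704, 2.26, 0 and 0 CPM in basal cells and at 158, 531, 243 and 61.3 CPM in fibroblasts.

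Dcn lay between the patterns. It stood at 119.5, 173, 189 and 159 CPM in basal cells. Its level exceeded the basal reference by less than 3-fold in some libraries, so it was not counted above it. Basal Dcn was at 0.965% to 1.36% of the fibroblast level, while the luminal reference medians did not exceed 0.424%. The rule thus does not settle whether basal cells hold Dcn of their own. In luminal progenitors it was at 11.3, 39.6, 2.42 and 5.45 CPM. Dcn was higher in basal than luminal cells by 3.32 (SE 0.42, adjusted p = 7.62e-07), and 17.1% to 21.1% of thinned basal cells in 3 libraries and 13.1% in the control library at 8 weeks held a UMI. In luminal progenitors 0.417% to 6.47% did. The unthinned shares were 30.8% to 47.5% in basal cells and 1.67% to 24.3% in luminal progenitors.

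**Figure D3:**
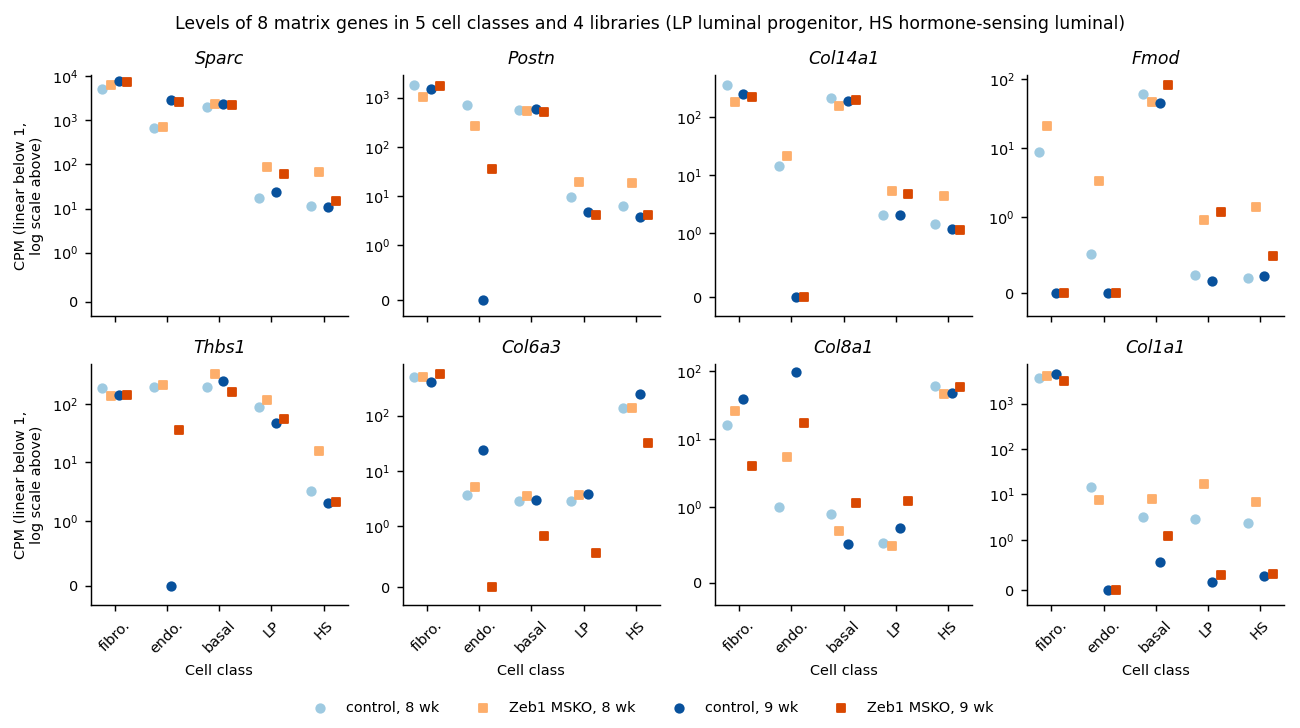
CPM of 8 matrix genes in each cell class (x axis) and library (points, colour and shape as in the key), on an axis that is linear below 1 CPM and logarithmic above. Sparc, Postn, Col14a1 and Fmod are high in basal cells, Thbs1 in basal cells and luminal progenitors, Col6a3 and Col8a1 in hormone-sensing cells, while epithelial Col1a1 does not exceed 17.1 CPM.

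Between the luminal classes, 4 members were higher in luminal progenitors and 5 in hormone-sensing cells, where 27% of all genes tested were higher and 26.8% lower in progenitors. The largest differences were those of Col8a1 (-6.20, SE 0.38, adjusted p = 3.27e-11) and Col6a3 (-5.69, SE 0.40, adjusted p = 2.35e-10), both higher in hormone-sensing cells. Tnxb (-2.52, SE 0.56), Pcolce (-2.42, SE 0.39) and Dcn (-1.46, SE 0.50) went the same way. Thbs1 (4.01, SE 0.43, adjusted p = 1.09e-07), Fbln2 (2.95, SE 0.50, adjusted p = 4.38e-05), Tnc (2.19, SE 0.72) and Fbln1 (1.88, SE 0.51) were higher in luminal progenitors. The calls of Tnc, Fbln1 and Dcn did not hold in the absence of the Zeb1 MSKO library at 9 weeks (adjusted p = 0.0915, 0.103 and 0.0924). Tnc and Dcn also lost the call without the control library at 9 weeks (0.0697 and 0.0592), and Dcn without the control library at 8 weeks (0.0634). Over all alternatives the edgeR adjusted p of Tnc, Fbln1 and Dcn reached 0.381, 0.529 and 0.543. Their differences shrank to as little as 0.59, 0.56 and -0.34.

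Col6a3 (ENSMUSG00000048126, chr1:90765923-90843971, minus strand), a chain of the microfibrillar type VI collagen, stood at 140.1, 139.7, 244 and 32.2 CPM in hormone-sensing cells. In basal cells it was at 2.82, 3.48, 3 and 0.828 CPM and in luminal progenitors at 2.87, 3.64, 3.71 and 0.552 CPM. In both luminal classes the control library at 9 weeks was the highest and the Zeb1 MSKO library at 9 weeks the lowest, with the libraries at 8 weeks between them. Thinned, 19.7%, 20.7%, 33.8% and 6.02% of hormone-sensing cells held a Col6a3 UMI (54.9%, 65.2%, 77.6% and 26.6% unthinned), against 0.355% to 0.674% of basal cells (0.71% to 2.61% unthinned). Its partner chains did not share the pattern: in hormone-sensing cells Col6a1 was at 2.25, 4.04, 0.788 and 5.73 CPM and Col6a2 at 0.78, 3.43, 0.233 and 0.239 CPM.

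Col8a1 (ENSMUSG00000068196, chr16:57624258-57754737, minus strand), a short-chain collagen, stood at 61.6, 46.1, 47.6 and 58.9 CPM in hormone-sensing cells, a narrow range. Basal cells held 0.509 to 1.14 CPM, luminal progenitors 0.481 to 1.24 CPM, and fibroblasts 16.4, 26, 39.5 and 4.09 CPM. Hormone-sensing cells were higher than fibroblasts in every library, though the fibroblast values at 9 weeks rested on 7 UMIs in the control and 1 UMI in the MSKO library. Endothelial cells stood at 1.02, 5.52, 96.7 and 17.5 CPM of Col8a1. They were above hormone-sensing cells in the control library at 9 weeks, on 4 UMIs. Thinned, 10.5%, 8.15%, 8.45% and 10.4% of hormone-sensing cells held a UMI (39.4%, 34.3%, 32.6% and 44.1% unthinned), against at most 0.399% of basal cells (at most 0.932% unthinned).

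In luminal progenitors Thbs1 was the leading matrix gene in 3 of the 4 libraries, at 87.6, 118, 47.3 and 55.8 CPM, and in hormone-sensing cells it was at 3.18, 15.5, 2.04 and 2.13 CPM. Thinned, 14%, 18.3%, 7.51% and 9.71% of luminal progenitors held a Thbs1 UMI (39.9%, 49%, 25.9% and 29.7% unthinned). Basal cells were also considered as a source. Over 6 contractile genes of basal cells (such as Acta2 and Myh11) the median level in luminal progenitors was 0.453%, 2.77%, 0.7% and 1.26% of the basal level, and in hormone-sensing cells 0.323%, 2.15%, 0.505% and 0.553%. With this source added to the reference, an alternative chosen after seeing the data, 2 members (Tnc, Thbs1) lay above it in luminal progenitors and 3 (Col6a3, Col8a1, Tnxb) in hormone-sensing cells.

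Against the mean of the log levels of the 3 epithelial classes, endothelial cells were higher in 13 members and lower in none. Of all genes tested 21.6% were higher. Among the 13, Sparc, Postn, Bgn, Thbs1 and Dcn had a lower mean CPM in endothelial than in basal cells. Their means were 1709, 251, 376, 109 and 101 CPM in endothelial cells and 2207, 549.9, 488, 229 and 160.0 CPM in basal cells. The others of the 13 had a higher mean CPM in endothelial than in basal cells. For Fbln2 this rested on the 9-week libraries, with 15 and 12 UMIs. At 8 weeks it stood at 28.6 and 37 CPM in endothelial cells, below the 124 and 93.9 CPM of basal cells. The Lox mean of 20 CPM included 72.6 CPM on 3 UMIs in the control library at 9 weeks. With the 8-week libraries only, or with no filter on low counts, 2 members were lower, and leaving out either 9-week library or fitting only the classes compared made 1 lower. Tnc, tenascin C, differed most (7.26, SE 0.53, adjusted p = 5.64e-10), followed by Fn1 (5.44, SE 0.51), Col15a1 (4.92, SE 0.53), a collagen of vascular basement membrane zones, and Eln (4.61, SE 0.44). Tnc stood at 440.4, 394, 0 and 0 CPM, so its level rests on the 2 libraries at 8 weeks. At 9 weeks the 8 and 7 endothelial cells would have to reach 72.6 and 52.6 CPM to give 3 UMIs, which is below the Tnc levels at 8 weeks. Other called members were also lower at 9 weeks, such as Postn (707, 263, 0 and 35.1 CPM), or higher, such as Eln (143, 142, 919 and 386 CPM). The cause was not tested. Sparc was at 672, 694, 2926 and 2544 CPM, higher in both libraries at 9 weeks. Col1a1, Col3a1 and Lum did not pass the test in endothelial cells (adjusted p = 0.19, 0.197 and 0.576).

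Within fibroblasts the list divided. Fibroblasts with at least 3 UMIs over Pi16, Dpp4, Sema3c, Anxa3 and Cd55, genes known to mark adventitial-type fibroblasts, numbered 228, 300, 17 and 16, and those with none of these UMIs 81, 108, 3 and 8. With library as a block, 10 of 30 members tested were higher in the adventitial-type cells and 5 lower (edgeR), where 5.82% of all 4041 genes tested were higher and 5.91% lower. The higher ones included 5 of the 7 elastic fibre genes: Fbn1 (2.02, SE 0.20, adjusted p = 1.36e-06), Eln (1.67, SE 0.27), Mfap4 (1.32, SE 0.34), Mfap5 (1.13, SE 0.18) and Fbln2 (0.68, SE 0.21). The others were Col14a1 (2.05, SE 0.25, adjusted p = 9.09e-06), Ogn (1.80, SE 0.21), Tnxb (1.28, SE 0.19), Fn1 (0.70, SE 0.19) and Thbs2 (0.62, SE 0.20).

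Fbn1 stood at 879, 664, 738 and 773 CPM in adventitial-type and at 242, 147, 306 and 139 CPM in the other fibroblasts, ranges that did not overlap. Col14a1 stood at 518, 249, 299.7 and 277 CPM against 77.6, 68.5, 102 and 174 CPM. Ogn (osteoglycin, a proteoglycan) stood at 667, 691, 380.0 and 496 CPM against 211, 199, 153 and 69.6 CPM. For these 3 genes every adventitial-type value exceeded every value of the other fibroblasts. At 9 weeks the values of the other fibroblasts rested on few UMIs. Control and MSKO libraries held 6 and 8 of Fbn1, 2 and 10 of Col14a1, and 3 and 4 of Ogn.

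The 5 lower ones were Thbs1 (-1.43, SE 0.20, adjusted p = 4.09e-05), Col15a1 (-1.28, SE 0.21), Postn (-0.99, SE 0.20), Lum (-0.98, SE 0.16) and Dcn (-0.47, SE 0.13). Lum stood at 1790.4, 1686, 1652 and 1554 CPM in adventitial-type and at 4109, 2986, 3722 and 3271 CPM in the other fibroblasts, again without overlap. Col15a1 stood at 124, 183, 168 and 168 CPM against 424, 298, 408 and 522 CPM. The type I and III collagens were not called in either direction: Col1a1 differed by -0.32 (SE 0.15, adjusted p = 0.199) and Col3a1 by -0.17 (SE 0.16, adjusted p = 0.564). Without the control library at 8 weeks 6 members passed the test (71 of all 1844 genes): Fbn1, Col14a1, Ogn, Thbs1, Lum and Dcn. Mfap4 (0.29, adjusted p = 0.799), Fbln2 (0.32, 0.588), Fn1 (0.53, 0.284) and Thbs2 (0.50, 0.499) also lost the call in the absence of the Zeb1 MSKO library at 8 weeks. Fn1 (0.58, 0.14) and Dcn (-0.39, 0.46) lost it in the absence of the Zeb1 MSKO library at 9 weeks, and Mfap4 (1.41, 0.0518) and Fbln2 (0.70, 0.0574) without the control library at 9 weeks. Over all alternatives 20 values of the 15 called members lost the call. For Dcn the edgeR adjusted p reached 0.538 and the difference shrank to as little as -0.33.

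**Figure D4:**
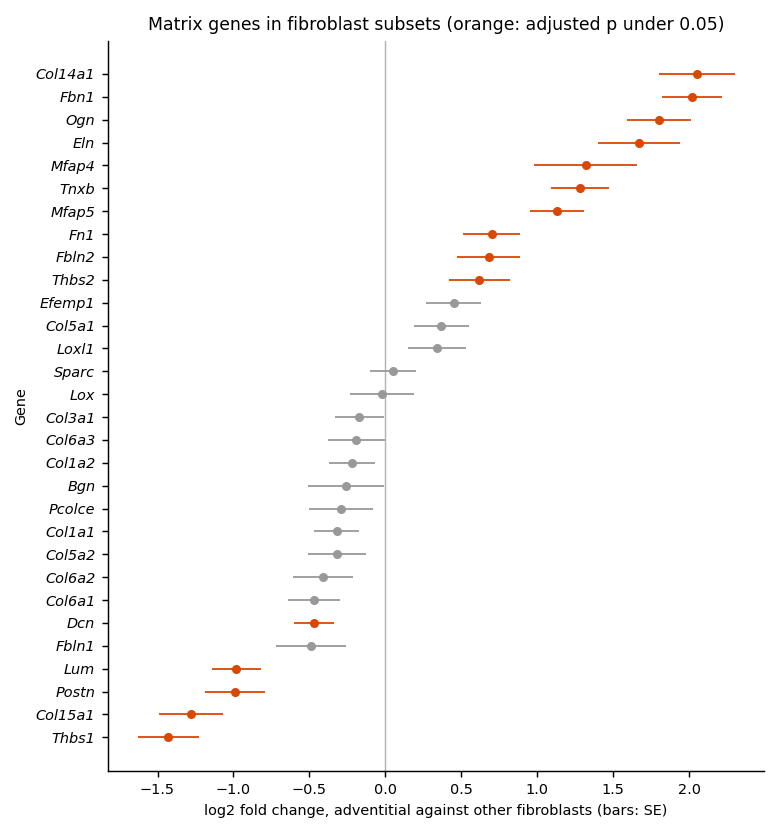
Log2 fold change of 30 matrix genes between adventitial-type and other fibroblasts (points, with SE as bars, edgeR with library as a block). Orange points passed an adjusted p of 0.05: 10 lie to the right (Col14a1 at 2.05 the farthest) and 5 to the left (Thbs1 at -1.43).

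Other genes of collagen handling were counted by list. Of 23 genes for collagen folding, modification, trimming, crosslinking, uptake and breakdown, 22 were tested, and all 22 were higher in fibroblasts than epithelium (24.8% of all genes), such as Pcolce2 (9.22, SE 0.32), a helper of procollagen cleavage, and Ctsk (8.94, SE 0.37), a collagen-degrading protease. In basal against luminal cells, where 31.5% of all genes were higher and 32.1% lower, 15 of the 22 were higher and none lower, with Loxl3 (5.29, SE 0.28), Adamts2 (5.26, SE 0.29), Plod2 (3.98, SE 0.27) and the collagen chaperone gene Serpinh1 (3.43, SE 0.26) among them. Between the luminal classes 10 were higher in progenitors and 8 lower (27% and 26.8% of all genes). Of 13 matrix receptors, 12 were higher in basal than luminal cells (31.5% of all genes) and none lower, Itga1 (6.08, SE 0.31), a collagen-binding integrin subunit, the most.

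Of 16 genes of TGF-beta signalling and its matrix targets, 11 were higher in basal than luminal cells and 1 lower, beside the same 31.5% and 32.1% of all genes. Ltbp4 (5.12, SE 0.30), Ltbp2 (4.85, SE 0.34), which encode latent TGF-beta binding proteins, and Ctgf (4.72, SE 0.25) were among the higher. Ltbp1 was the lower one (-3.39, SE 0.34). In fibroblasts against epithelium 11 of the 16 were higher, such as Tgfbi (7.72, SE 0.38), and 2 lower, where 24.8% of all genes were higher.

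No member differed between Zeb1 MSKO and control libraries in any class by edgeR, and 0% of all genes tested did so by edgeR. At an unadjusted p under 0.05 there were 0 members in fibroblasts, 0 in endothelial cells, 2 in basal cells, 6 in luminal progenitors and 3 in hormone-sensing cells, beside 173, 18, 67, 247 and 452 of all genes. DESeq2 called 1 member, Sparc in luminal progenitors (log2 fold change 1.80, adjusted p = 0.00184), and none in the other classes. Over all genes DESeq2 called 10 of 12962 in luminal progenitors, 27 of 13027 in hormone-sensing cells, 1 of 12736 in basal cells and 0 in fibroblasts and endothelial cells. With 2 libraries against 2, an exact permutation test of a single value cannot go below p = 0.333. None of the genes tested from the 3 pathway lists described above was called between genotypes.

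In fibroblasts the log2 ratio of Zeb1 MSKO to control had a median over the 33 members of -0.01 at 8 weeks and -0.06 at 9 weeks. The MSKO and control libraries did not overlap for 8 members, 1 higher and 7 lower, where 30.7% of all genes of at least 1 CPM did not overlap. Col14a1 stood at 355 and 254 CPM in controls and 185 and 221 CPM in MSKO fibroblasts (-0.66, SE 0.29, edgeR adjusted p = 1, range over alternatives 0.605 to 1). Mfap4 and Eln moved in opposite directions at the 2 ages. Eln stood at 333 and 973 CPM at 8 weeks and at 587 and 139 CPM at 9 weeks, control before MSKO. Leaving out the 9-week Zeb1 MSKO library, Mfap4 passed the test (1.48, adjusted p = 0.013), while without the one at 8 weeks its difference was -1.75 (adjusted p = 0.111).

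In basal cells the median log2 ratio was 0.13 at 8 weeks and -0.22 at 9 weeks. The groups did not overlap for 7 of 26 members with a mean of at least 1 CPM, all lower in MSKO. Of all such genes 14.3% did not overlap. Those with an unadjusted p under 0.05 (edgeR) were Fbln1 (-0.84, SE 0.33) and Mfap5 (-1.33, SE 0.56), each with an edgeR adjusted p of 1. Sparc and Postn, the leading basal members, kept within 2007 to 2309 and 509.7 to 595 CPM over the 4 libraries. For Postn both MSKO libraries lay below both controls.

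In luminal progenitors 32 of 33 members had a ratio above 0 at 8 weeks (median log2 ratio 1.43) and 23 at 9 weeks (0.40). The groups did not overlap for 7 of 23 members with a mean of at least 1 CPM, all higher in MSKO. Of all such genes 21.6% did not overlap. Fmod, with a mean of 0.634 CPM, was not counted but did not overlap either. Leaving out the 8-week Zeb1 MSKO library, the median of the fitted changes turned from 1.21 to -0.48. Sparc stood at 17 and 24.2 CPM in controls and 89.1 and 61.4 CPM in MSKO libraries (1.80, SE 0.32, edgeR adjusted p = 1, range over alternatives 0.000126 to 1). Fmod (2.31, SE 0.67), Bgn (1.88, SE 0.65), Eln (1.63, SE 0.59), Fbln1 (1.47, SE 0.49) and Col14a1 (1.22, SE 0.37) had unadjusted p values under 0.05. All 6 are among the members above the reference in basal cells. Basal RNA moved with them: Acta2 in luminal progenitors stood at 44.5 and 101 CPM in controls and 152 and 229.7 CPM in MSKO libraries, and all 4 basal markers together at 43.9 and 60.1 CPM against 214 and 83.1 CPM. The part of basal RNA in these differences was not tested.

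In hormone-sensing cells the median log2 ratio was 1.51 at 8 weeks and 0.18 at 9 weeks, and leaving out the 8-week Zeb1 MSKO library the median of the fitted changes turned from 1.34 to -1.02. The groups did not overlap for 4 of 21 members with a mean of at least 1 CPM, 3 higher and 1 lower, where 28.4% of all such genes did not overlap. The lower one was Col6a3 (-1.14, SE 0.70, edgeR adjusted p = 1, range over alternatives 0.365 to 1), although its 2 values at 8 weeks were 140.1 and 139.7 CPM. Col8a1 differed by -0.01 (SE 0.24). Fmod, with a mean of 0.585 CPM, was not counted, but its MSKO libraries both lay above the controls. In this class too the 4 basal markers were highest in the Zeb1 MSKO library at 8 weeks (152 CPM, against 25.3 to 33.4 CPM in the others), and so was the fibroblast reference. The part of carried-over RNA was not tested.

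In endothelial cells 1 of 28 members with a mean of at least 1 CPM did not overlap between the groups (Fbn1, higher in MSKO). Of all such genes 21.7% did not overlap. At 9 weeks the Fbn1 values rested on 1 UMI in the control and 5 UMIs in the MSKO library.

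**Figure D5:**
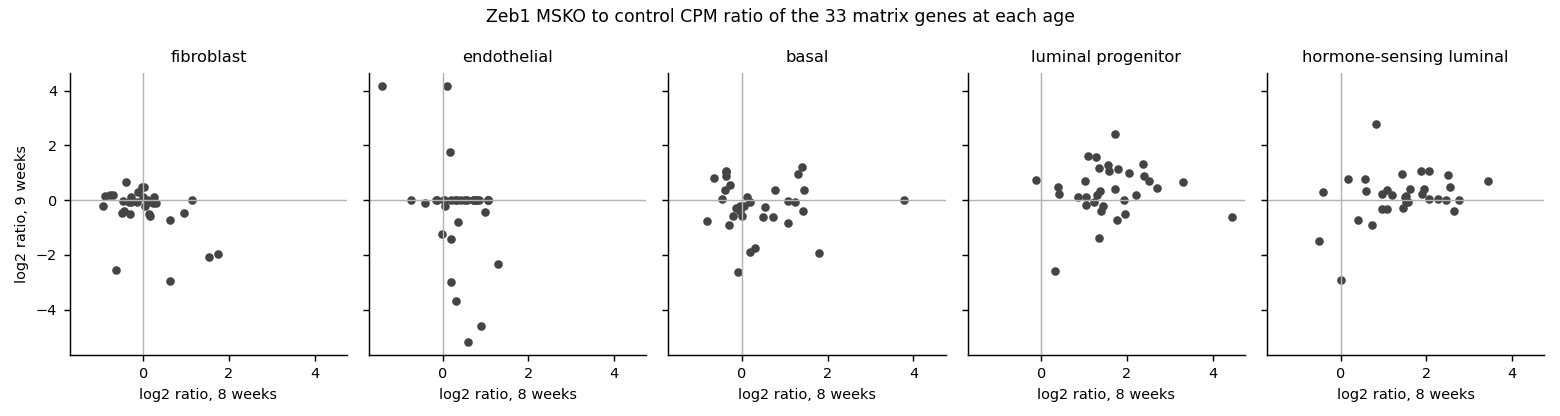
Log2 ratio of Zeb1 MSKO to control CPM for the 33 matrix genes at 8 weeks (x axis) and 9 weeks (y axis) in each class, 1 point a gene, with a prior of 2 counts. In the luminal classes nearly all points lie to the right of 0 (32 and 30 of 33), while at 9 weeks 23 and 21 lie above 0. Fibroblast points centre on 0.

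The ages were compared in the epithelial classes only. With genotype as a block, 5 members were lower at 9 than at 8 weeks in basal cells, where 1.75% of all genes were lower, and none was higher. With RLE factors 6 members were lower, and the split over all genes was 91 higher to 463 lower in place of 13 to 223. In luminal progenitors 7 members were lower, where 1.61% of all genes were lower. In hormone-sensing cells no member passed edgeR's test, where 0.023% of all genes were lower. There 20 of 31 members had an unadjusted p under 0.05, beside 1398 of all 13027 genes. DESeq2 was not run on the ages.

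Col1a1 (-2.71, SE 0.42, adjusted p = 0.00567) and Col3a1 (-2.23, SE 0.34, adjusted p = 0.00486) fell in basal cells, the latter standing at 7.18, 19.3, 1.7 and 4.04 CPM. Fn1 (-1.80, SE 0.38, adjusted p = 0.0323) fell as well, and so did Lum and Efemp1, which rested on 2 and 2 and on 1 and 2 UMIs at 9 weeks. In luminal progenitors the same 5 genes fell, with Col1a2 (-4.46, SE 0.46, adjusted p = 0.00149) and Dcn (-2.54, SE 0.32, adjusted p = 0.005). Without the genotype block Col1a1 no longer passed in either class (adjusted p = 0.0525 and 0.0741), Col3a1 no longer in basal cells (0.0829) and Dcn no longer in luminal progenitors (0.156). These genes are among those not above the fibroblast reference in epithelium. Fibroblasts were 3.86% and 5.37% of kept cells at 8 weeks and 0.304% and 0.312% at 9 weeks. The part of carried-over RNA in these age differences was not tested, and age cannot be told apart from preparation.

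Of the 13 members above the reference in basal cells none passed the test between ages, though the rule that chose them asked for 10 UMIs and a 3-fold excess at both ages. Their differences ran from -0.60 (Fbln2, SE 0.31) to 0.83 (Eln, SE 0.33, edgeR adjusted p = 0.285). Basal Sparc differed between ages by 0.02 (SE 0.19), Postn by -0.05 (SE 0.24), Col14a1 by 0.04 (SE 0.29) and Fmod by 0.12 (SE 0.35). Col8a1 in hormone-sensing cells differed by 0.04 (SE 0.23). Dcn in basal cells differed by 0.21 (SE 0.30), beside -2.54 in luminal progenitors. The difference between these classes in the change with age was not tested.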

How the data were processed

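The authors deposited 1 matrix of UMI counts per gene and cell barcode for all 4 libraries, made with Cell Ranger 2.1.0 against mm10, per the submitters' processing notes; the barcode suffix was matched to the library. Barcodes were kept from 500 detected genes upward and up to 10% mitochondrial UMIs. Cells were gated by raw UMIs of marker genes (at least 5 UMIs for stromal and 10 for epithelial classes, from at least 2 markers). No doublet caller was run, and cells positive for more than 1 class were left out. Class names rest on these gates, not on an annotation by the authors.

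Counts were summed per class and library, given as CPM, and tested with edgeR 4.0.16 in R 4.3.3 (quasi-likelihood, TMM factors, filterByExpr, Benjamini-Hochberg over all genes tested, threshold 0.05). Class and fibroblast subset contrasts had the library as a block, ages the genotype. SE is the log2 fold change over the square root of F. Tables were handled in Python 3.11.15 with pandas 2.3.3. The edgeR fit was tested on simulated counts for genotype in fibroblasts and basal cells and for basal against luminal cells. The other steps were not simulated. Alternatives were RLE factors, no filter, DESeq2 1.42.0, a stricter gate, mixed cells kept, other folds, blocks and libraries left out. The contractile source and the class contrasts on 8-week libraries only were chosen after seeing the data. Shares and floors cover counting error only.

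The members and lists were chosen with earlier results of these data known. Values by library were given for the 10 members highest in fibroblasts, those past a threshold and those above the reference, and the rest by range.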

Additional observations from a re-analysis of the deposited data

Results flagged for a closer look

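For 4 members the libraries of one class all moved one way between genotypes and those of another class all moved the opposite way. The differences between classes were not tested, and none of these changes passed the adjusted threshold in edgeR. Col6a1 was higher in both Zeb1 MSKO libraries in hormone-sensing cells (log2 fold change 1.75) and lower in basal cells (-0.43). Col14a1 was higher in luminal progenitors (1.22) and lower in fibroblasts (-0.66). Fbn1 was higher in endothelial cells (0.62, on 1 and 5 UMIs at 9 weeks) and luminal progenitors (1.39) and lower in fibroblasts (-0.44). Fbln1 was higher in luminal progenitors (1.47) and lower in basal cells (-0.84).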

How the results depend on the processing

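Over 84 pairs of a named member and a comparison, 706 of 750 alternative values kept their direction and side of the threshold, 34 lost the threshold, 4 gained it, 6 moved without a call, and no called value changed sign. Between genotypes 0 members were called in each class; leaving out 1 library gave 0 to 1 in fibroblasts, no filter on low counts gave 1 in basal cells (57 of all 18684 genes) and 6 in luminal progenitors (95 of 18532), and DESeq2 gave 1 in luminal progenitors (10 of 12962). Between ages, no filter gave 8 in basal cells (645 of all 18684 genes), 19 in luminal progenitors (651 of 18532) and 6 in hormone-sensing cells (152 of 18534). With the filter these were 5, 7 and 0 (236 of 12736, 237 of 12962 and 3 of 13027). Without the genotype block 3 were called in basal cells (219 of 12736), and 12 in luminal progenitors with mixed cells kept (233 of 13580). Leaving out 1 library gave 6 (71 of 1844) to 15 (507 of 5831) calls between fibroblast subsets (15 with all, 474 of 4041). Between the luminal classes it gave 6 (7104 of 14045) to 13 (6481 of 13945), and 9 with all (7480 of 13891). The cause was not tested.

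Above the fibroblast reference lay 13 members in basal cells, 5 in luminal progenitors and 4 in hormone-sensing cells. The highest reference ratio gave 3, 0 and 0. In luminal progenitors a 2-fold threshold gave 8, a 5-fold one 3, leaving out 1 library 5 to 8 and the added basal source 2. In hormone-sensing cells a 2-fold threshold gave 7, mixed cells kept 8 and leaving out 1 library 4 to 7.

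With age as a replicate block, 0 members were called between genotypes in all 5 classes. The deviations of same-age libraries correlated at 0.20 in fibroblasts, 0.40 in endothelial, 0.43 in basal, 0.37 in luminal progenitor and 0.27 in hormone-sensing cells, over 2 pairs that the labels do not tie to a shared batch. Age comparisons without 1 library could not be fitted with the genotype block. Depth limits stromal values at 9 weeks most, where 7 to 30 cells make up a class.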

Other observations

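Cells gated as pericytes or vascular muscle numbered 8, 8, 2 and 9, too few for a comparison. The 33 matrix genes made up 1.22%, 0.963%, 0.541% and 0.965% of their UMIs, above the basal class and below the fibroblasts in every library. Sparc led there too, with 39% to 60% of the summed matrix RNA. In cells gated as immune the genes made up 0.0146%, 0.0355%, 0.0235% and 0.0542% of UMIs.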
